A study of Homo sapiens with 6 samples.

Results

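Expression of 9 genes of the transforming growth factor-β (TGF-beta) pathway was measured by RNA-Seq in DU-145-DR/tet-MUC1shRNA cells with and without silencing of MUC1. The genes were picked by name as the pathway's ligands (TGFB1, TGFB2 and INHBA), receptors (TGFBR1 and TGFBR2) and SMAD proteins (SMAD2, SMAD3, SMAD4 and SMAD7), and they are 9 of the 28008 genes in the count table. TGFBR2 rose 1.43-fold in DOX-treated cells, while SMAD2 and SMAD3 fell to 83.0% and 87.6% of their levels. TGFB1, TGFB2, TGFBR1, SMAD4 and SMAD7 did not pass the test, and INHBA had too few reads to be tested.

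TGF-beta ligands are secreted in a latent complex and, once released, bring together a pair of type I and a pair of type II receptor serine/threonine kinases on the cell surface. The type II receptor phosphorylates the type I receptor, which phosphorylates SMAD2 and SMAD3. These receptor-regulated SMADs join the shared partner SMAD4 and act on target genes in the nucleus, and the inhibitory SMADs, SMAD7 and SMAD6, dampen the signal. In carcinomas the pathway is known both for arresting growth and for promoting epithelial-mesenchymal transition.

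DU-145 is a human prostate cancer line. DU-145-DR is a derivative of it selected for resistance to docetaxel, and the cells carry a vector with a hairpin RNA against MUC1 that is switched on by doxycycline (DOX). The DOX-negative group (3 libraries) was given 0.1% DMSO as vehicle and the DOX-positive group (3 libraries) 500 ng/ml DOX, each for 7 days, and both groups share the docetaxel resistance. The cells were transduced and selected with puromycin, with a single hairpin sequence, and control-hairpin cells given DOX were not analysed here, so effects of DOX and of the hairpin itself cannot be told apart from those of MUC1 loss. In the labels the hairpin appears under the DOX-positive samples alone and the docetaxel resistance under the DOX-negative samples alone, and both groups were taken as the same line from the study's description.

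Library totals lay between 15092691 and 23243713 counts, and a count of 3, taken as the detection floor, stood for between 0.129 and 0.199 CPM (read counts relative to the size of the library). The targeted gene, MUC1, had 387, 484 and 396 counts without DOX and 75, 74 and 66 counts after it. This was a fall from 21.9 ± 2.58 to 3.85 ± 0.584 CPM (SD, n = 3 each), and the log2 fold change was -2.52 with an SE of 0.146 (edgeR adjusted p = 4.47e-11). Nothing in the labels beyond triplicate culture says how far the replicates were grown apart, so p-values measure the spread between these samples.

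The promoters of the members that changed, TGFBR2, SMAD3 and SMAD2, are shown because these are the genes on which the comparison turns. Each is the RefSeq window (GRCh38.p14) from 250 bases before to 50 bases after a transcript start, written 5′ to 3′ on the strand of the gene. It is 1 of 2 windows of TGFBR2, 1 of 5 of SMAD3 and 1 of 2 of SMAD2, and the windows shown were chosen with their motifs known. Capitals mark CAGAC, a SMAD-binding element, GTCTAGAC, its palindromic form, TGACTCA, the AP-1 site, and GGGCGG, the GC box bound by SP1-family factors, each searched on both strands.
TGFBR2, chr3:30606351-30606650, plus strand: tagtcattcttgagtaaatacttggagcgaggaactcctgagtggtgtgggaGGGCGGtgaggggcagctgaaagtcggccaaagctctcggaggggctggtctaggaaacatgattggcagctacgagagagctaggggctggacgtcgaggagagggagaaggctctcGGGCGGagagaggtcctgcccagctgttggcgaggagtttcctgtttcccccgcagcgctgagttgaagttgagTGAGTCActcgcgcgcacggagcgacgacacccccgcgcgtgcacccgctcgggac
SMAD3, chr15:67065352-67065651, plus strand: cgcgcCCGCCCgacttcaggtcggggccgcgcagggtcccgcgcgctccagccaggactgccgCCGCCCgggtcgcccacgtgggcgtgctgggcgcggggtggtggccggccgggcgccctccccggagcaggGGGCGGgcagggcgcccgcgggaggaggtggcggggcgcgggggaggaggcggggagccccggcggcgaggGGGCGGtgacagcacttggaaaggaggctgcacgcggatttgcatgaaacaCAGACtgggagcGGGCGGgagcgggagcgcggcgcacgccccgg
SMAD2, chr18:47930823-47931122, minus strand: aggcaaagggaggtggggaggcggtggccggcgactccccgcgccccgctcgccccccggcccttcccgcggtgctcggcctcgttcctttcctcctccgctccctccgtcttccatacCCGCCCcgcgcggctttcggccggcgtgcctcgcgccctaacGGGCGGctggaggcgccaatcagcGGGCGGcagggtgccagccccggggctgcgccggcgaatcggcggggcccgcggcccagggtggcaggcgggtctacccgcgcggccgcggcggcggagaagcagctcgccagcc

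Of the windows shown, that of TGFBR2 held 1 AP-1 site and 2 GC boxes, that of SMAD3 held 1 CAGAC and 5 GC boxes, and that of SMAD2 held 3 GC boxes. The other TGFBR2 window held 0 of these motifs and the other SMAD2 window 4 GC boxes, while the other SMAD3 windows held 0 GC boxes, from 0 to 4 CAGAC and, in a single window, 1 AP-1 site. The GC content of the windows shown was 61.7%, 80.3% and 78.7%, respectively. Among all 35116 RefSeq windows of this length, CAGAC was found in 45.3%, GTCTAGAC in 0.202%, TGACTCA in 4.95% and GGGCGG in 45.0%. The 9 members have 24 such windows, of which 11 held CAGAC (5 members), 10 held GGGCGG (6 members), 2 held TGACTCA (TGFBR2 and a second SMAD3 start) and 0 held GTCTAGAC. These matches describe letters in a window and say nothing of binding.

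The heptamer ATCAGTA was also located in the members, since an earlier scan of the 3′UTRs in these data had picked it out for its link with the fold changes. It was found in the 3′UTR (GENCODE 29, GRCh38) of 1209 of 12085 tested genes with such a region (10.0%), and in 3 of the 9 members. SMAD2 held 4 copies in an annotated 3′UTR of 32870 bases, TGFB2 held 1 copy in 3257 bases and SMAD4 held 1 copy in 6578 bases. A longer 3′UTR has more room for a match, and these shares were not adjusted for length, so they are not a like comparison. The sites are given with 11 bases on either side, on the strand of the gene, with the heptamer in capitals.
SMAD2, chr18:47839550-47839578, minus strand: atttgcaccacATCAGTActacttaattt
SMAD2, chr18:47832633-47832661, minus strand: aatctcatataATCAGTAtgaataatttt
SMAD2, chr18:47832547-47832575, minus strand: tctgtggatgaATCAGTActggttagcag
SMAD2, chr18:47832046-47832074, minus strand: aggaagcaggcATCAGTAtcaaactgatg
TGFB2, chr1:218444004-218444032, plus strand: gtctttttcctATCAGTAccatcatcgag
SMAD4, chr18:51083159-51083187, plus strand: actaaattagcATCAGTAgccagaggcaa

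Of the members that hold the heptamer, SMAD2 fell and TGFB2 and SMAD4 did not pass the test. SMAD3, which fell, and TGFBR2, which rose, held 0 copies. The heptamer was chosen on the same fold changes, and its part in them was not tested here.

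Across the count table, 14292 genes had enough reads to be tested, and 3816 of them (26.7%) passed an adjusted p of 0.05 (edgeR quasi-likelihood test, two-sided, Benjamini-Hochberg adjustment). Of these, 1861 were higher in DOX-treated cells (13.0% of genes tested) and 1955 were lower (13.7%). The calls split as 48.8% higher, against 9.42% on log2(TPM + 1) and 8.76% on log2(TPM + 0.1) of the deposited TPM, where the median of all genes lay at -0.34 and -0.39, so fold changes here are relative to the bulk of genes. Among the 9 members, 8 were tested and 3 passed, 1 higher and 2 lower, or 37.5% of those tested. The CPM values of the groups did not overlap for 5 of the 8 members, against 5683 of all genes tested (39.8%). The median log2 fold change was -0.04 over the 8 members and -0.0034 over all genes tested. In bulk RNA, fewer cells of a type and less RNA per cell cannot be told apart, which holds for each gene below.

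Of the ligands, TGFB1 and TGFB2 were well expressed and neither passed the test. TGFB1, the most widely made TGF-beta ligand (chr19:41301587-41353911, minus strand), had 81.7, 84.0 and 93.8 CPM in the DOX-negative libraries and 87.7, 81.7 and 80.5 CPM in the DOX-positive libraries. The groups overlapped, and the log2 fold change was -0.05 (95% interval -0.20 to 0.09, adjusted p = 0.638 by edgeR). An exon of HNRNPUL1 lies on the other strand over TGFB1. That gene had between 5841 and 9650 counts and a log2 fold change of -0.22 (adjusted p = 0.00806), and since the strand setting of the counting is not stated, reads of this pair may not be separable. Exons of AC087482.1 also overlap SMAD3 on the other strand. On the same strand, AC091551.1 overlaps SMAD4 and AL713999.1 overlaps MUC1. These further genes are absent from the count table.

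TGFB2, a second isoform of the ligand (chr1:218346235-218444619, plus strand), had 87.2, 82.4 and 94.9 CPM without DOX and 95.7, 108.7 and 96.6 CPM with DOX. Each DOX-positive library lay above each DOX-negative library, by a small margin. The means were 88.2 ± 6.29 and 100.3 ± 7.31 CPM (SD, n = 3 each), with a log2 fold change of 0.19 (95% interval 0.04 to 0.33, adjusted p = 0.0707 by edgeR). Without DOX-negative replicate 3, the log2 fold change was 0.24 and the adjusted p was 0.0365, so the call turns on this library. TGFB2-OT1, which lies within TGFB2 on the same strand, had 0 counts in each library.

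INHBA encodes the subunit of activin A, a ligand that also signals through SMAD2 and SMAD3 (chr7:41667168-41705834, minus strand). It had 5, 10 and 3 counts without DOX and 4, 2 and 11 counts with DOX. No library exceeded 11 counts, and the groups overlapped. INHBA did not pass the filter on low counts, and a difference was not detectable at this depth.

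The receptors differed from each other. TGFBR2, the type II receptor that binds the ligand (chr3:30606502-30694142, plus strand), had 156.7, 146.7 and 146.7 CPM without DOX and 221.1, 215.7 and 206.1 CPM with DOX. The groups were far apart, with each DOX-positive library above each DOX-negative library. TGFBR2 rose from 150.0 ± 5.79 to 214.3 ± 7.58 CPM (SD, n = 3 each), or 1.43-fold, and the log2 fold change was 0.51 with an SE of 0.0628 (edgeR adjusted p = 2.44e-06). The counts behind these values were between 2849 and 5077 in a library. Of all genes tested, 85.8% had a smaller absolute log2 fold change than TGFBR2. For the other called members this share was 63.4% (SMAD2) and 49.8% (SMAD3).

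TGFBR1, the type I receptor that phosphorylates SMAD2 and SMAD3 (chr9:99104038-99154192, plus strand), had 113.5, 107.2 and 120.9 CPM without DOX and 103.3, 113.7 and 109.0 CPM with DOX. The groups overlapped. The log2 fold change was -0.07 (95% interval -0.20 to 0.07, edgeR adjusted p = 0.519).

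**Figure D1:**
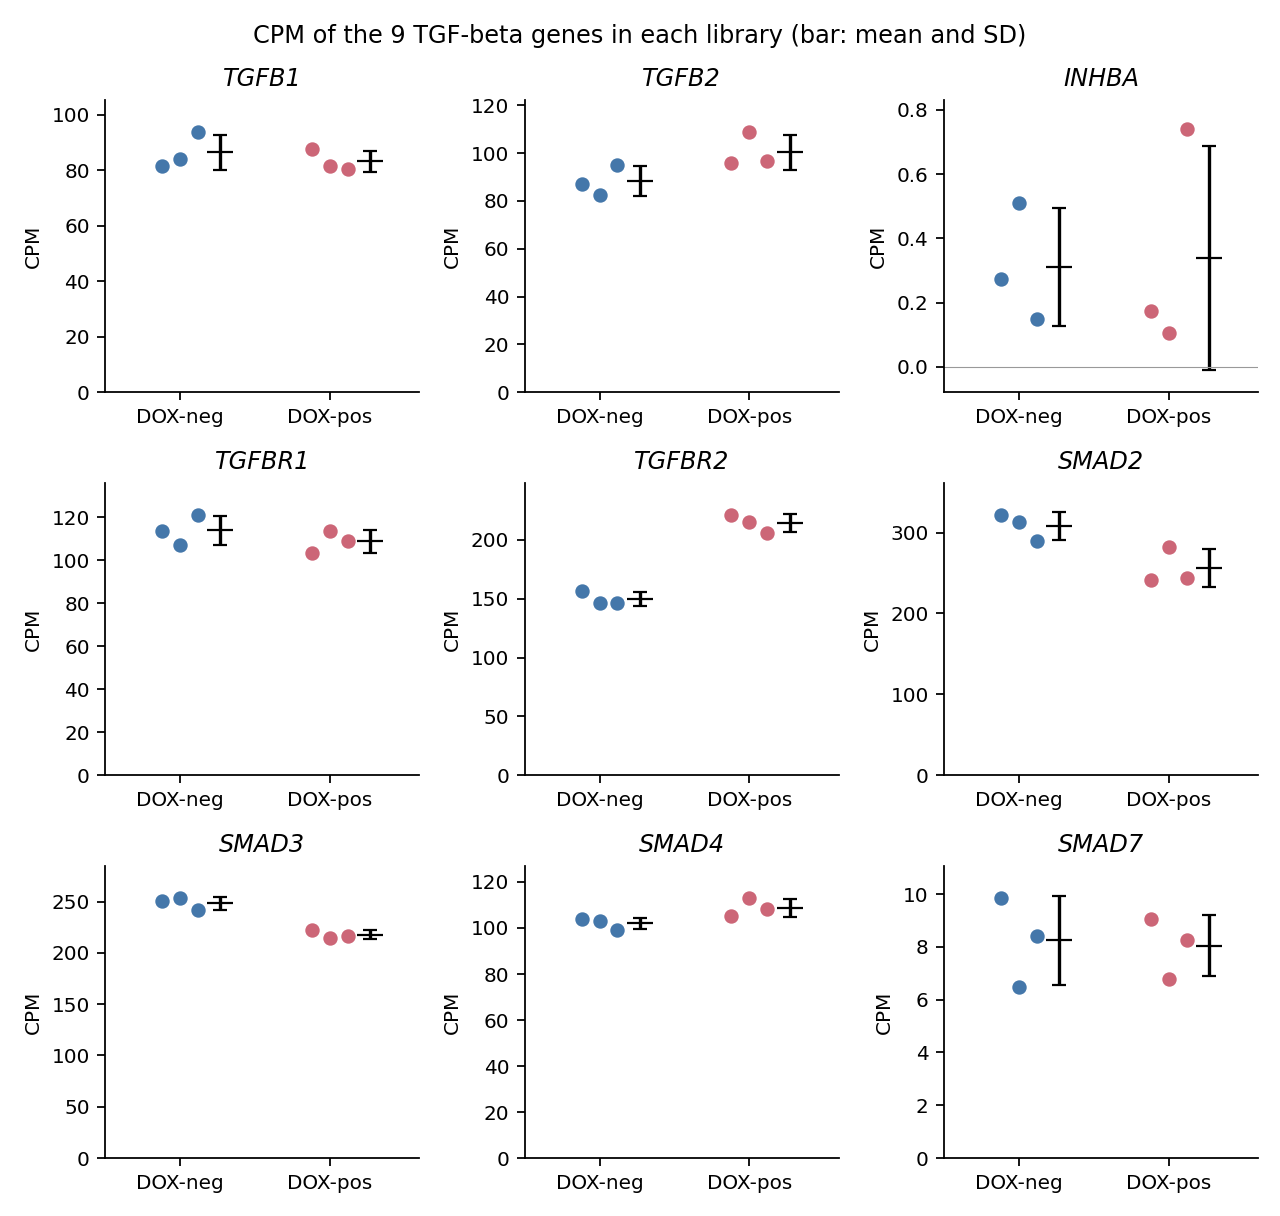
CPM (TMM-scaled, y axis from 0) of the 9 genes in each library. Points are libraries in the order of replicates 1 to 3, blue without and red with DOX, and the bars give the mean and SD (n = 3). TGFBR2 is higher in each DOX-positive library (206.1 to 221.1 CPM) than in each DOX-negative library (146.7 to 156.7 CPM), SMAD2 and SMAD3 are lower, and INHBA lies under 1 CPM throughout.

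Both receptor-regulated SMADs of the TGF-beta and activin branch fell. SMAD2 (chr18:47808957-47931146, minus strand) had 321.6, 313.5 and 289.4 CPM without DOX and 240.9, 282.8 and 244.0 CPM with DOX. DOX-positive replicate 2 came closest to the DOX-negative libraries, without overlap. The means were 308 ± 16.8 and 256 ± 23.4 CPM (SD, n = 3 each), so that DOX-treated cells kept 83.0% of the level, and the log2 fold change was -0.27 (SE 0.0692, edgeR adjusted p = 0.00599). With each library left out in turn, the adjusted p for SMAD2 was at most 0.0457.

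SMAD3 (chr15:67063763-67195195, plus strand) had 250.6, 253.5 and 241.6 CPM without DOX and 222.6, 214.8 and 216.1 CPM with DOX. The groups did not overlap and the spread within each was small. The means were 249 ± 6.18 and 218 ± 4.17 CPM (SD, n = 3 each), and the log2 fold change was -0.19 with an SE of 0.0594 (edgeR adjusted p = 0.0209). The call for SMAD3 was lost when DOX-negative replicate 1 (adjusted p = 0.0841), DOX-negative replicate 2 (0.0506) or DOX-positive replicate 3 (0.0765) was left out, while the log2 fold change stayed between -0.21 and -0.18 over the 6 such fits.

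SMAD4, the partner shared with the bone morphogenetic protein (BMP) branch (chr18:51028394-51085045, plus strand), had 103.8, 103.0 and 99.1 CPM without DOX and 105.3, 113.0 and 108.1 CPM with DOX. The values did not overlap, but the difference did not pass the test (log2 fold change 0.09, 95% interval -0.04 to 0.22, edgeR adjusted p = 0.324). SMAD7, the inhibitory SMAD that is itself a target of the pathway (chr18:48919853-48952052, minus strand), had 9.85, 6.49 and 8.40 CPM without DOX and 9.06, 6.79 and 8.26 CPM with DOX. Its groups overlapped throughout, with a log2 fold change of -0.03 (95% interval -0.36 to 0.29, edgeR adjusted p = 0.913). Of the 8 genes tested, SMAD7 was the lowest expressed and had the widest interval.

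**Figure D2:**
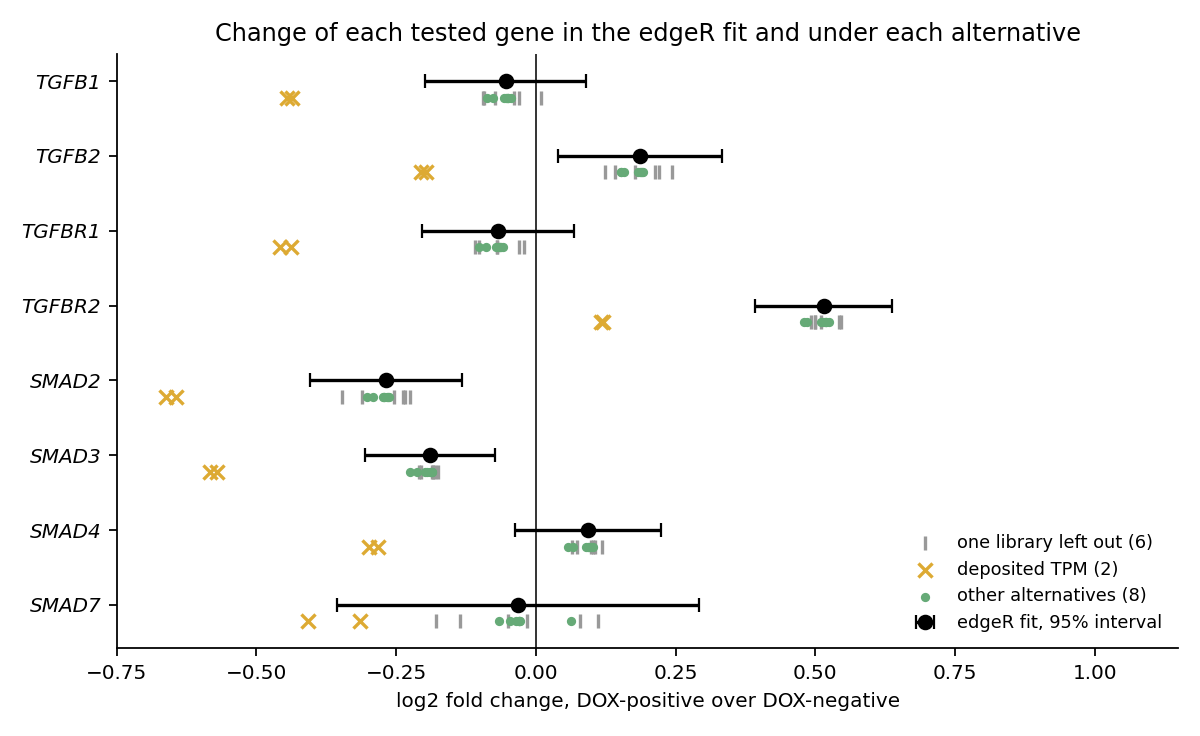
Log2 fold change of DOX-positive over DOX-negative cells (x axis) for the 8 tested genes. Black points and bars give the edgeR fit with its 95% interval, and the marks under them give each alternative. TGFBR2 stays above 0 and SMAD2 and SMAD3 below 0 under each of the 16 alternatives, and fits on the deposited TPM (crosses) lie to the left for all 8 genes, together with the median of all genes (-0.34 and -0.39).

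To compare the members with one another, TPM were used, a measure of transcript abundance that accounts for transcript length, rescaled without 5 short noncoding RNAs that took between 34.4% and 64.4% of the deposited TPM. In DOX-negative cells SMAD3 led with 101 ± 5.06 rescaled TPM (SD, n = 3), followed by TGFB1 at 90.6 ± 4.65, TGFBR2 at 87.5 ± 4.47 and SMAD2 at 75.7 ± 5.81. SMAD3 and TGFB1 overlapped in their library values, as did TGFB1 and TGFBR2. TGFBR1 (46.9 ± 1.65), TGFB2 (39.6 ± 1.81), SMAD4 (31.0 ± 1.50) and SMAD7 (6.71 ± 1.34) followed, each above the next in every library, and INHBA came last at 0.140 ± 0.0852.

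In DOX-positive cells TGFBR2 led with 122.7 ± 3.19 rescaled TPM (SD, n = 3), above SMAD3 (87.0 ± 0.506) and TGFB1 (85.8 ± 2.80) in every library. SMAD3 and TGFB1 overlapped. SMAD2 (61.8 ± 6.16) came next, then TGFB2 (44.4 ± 3.61) and TGFBR1 (44.1 ± 2.65), which overlapped, then SMAD4 (32.5 ± 1.54), SMAD7 (6.43 ± 0.858) and INHBA (0.149 ± 0.154).

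**Figure D3:**
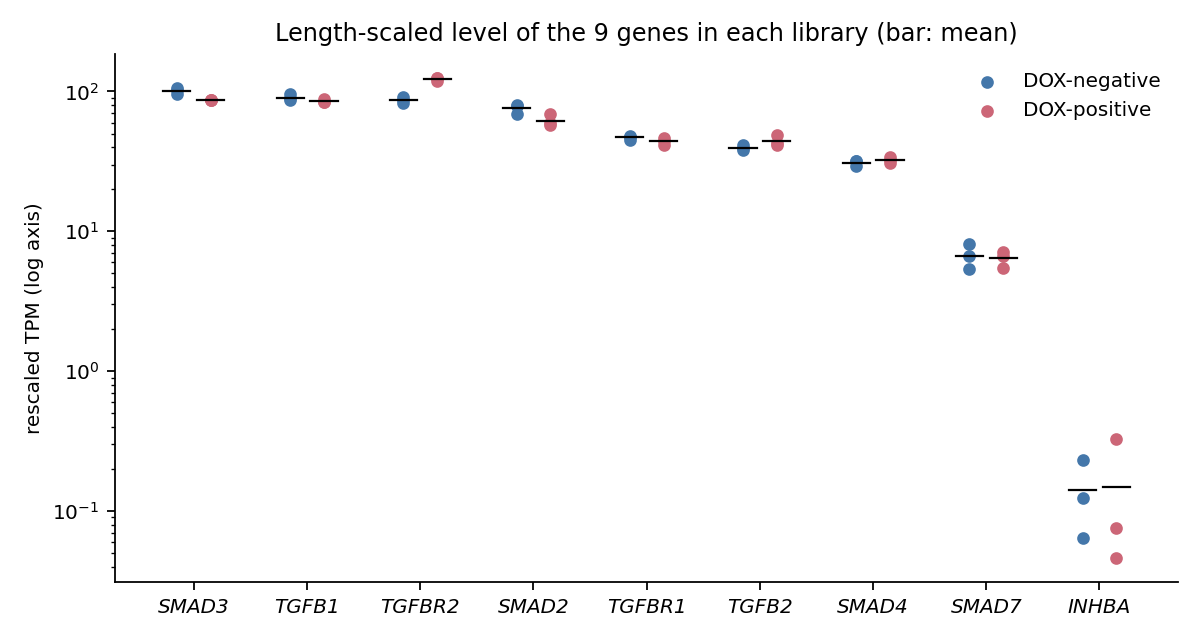
Rescaled TPM (log axis) of the 9 genes in each library, ordered by the DOX-negative mean, with points for libraries and a bar for the mean of each group (n = 3). TGFBR2 moves from 87.5 rescaled TPM, below SMAD3 and TGFB1 in the order of means, to 122.7 rescaled TPM, above both, and SMAD7 and INHBA lie below the other members in both groups.

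Ratios of TPM within a library do not depend on how libraries are scaled. The ratio of TGFBR2 to TGFBR1 was 1.95, 1.93 and 1.71 without DOX and 3.02, 2.68 and 2.67 with DOX, with means of 1.87 ± 0.132 and 2.79 ± 0.201 (SD, n = 3 each). The summed level of SMAD2 and SMAD3 per SMAD4 was 5.74, 5.76 and 5.62 without DOX and 4.68, 4.57 and 4.50 with DOX, with means of 5.71 ± 0.0716 and 4.58 ± 0.0901. These ratios did not overlap between groups, and nor did that of TGFB1 to TGFB2, which was 2.18, 2.38 and 2.30 without DOX and 2.14, 1.75 and 1.94 with DOX. The ratio of SMAD3 to SMAD2 overlapped, at 1.34 ± 0.0462 and 1.42 ± 0.143. They are given as descriptions, since the genes in them were tested above, and they say nothing of protein.

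**Figure D4:**
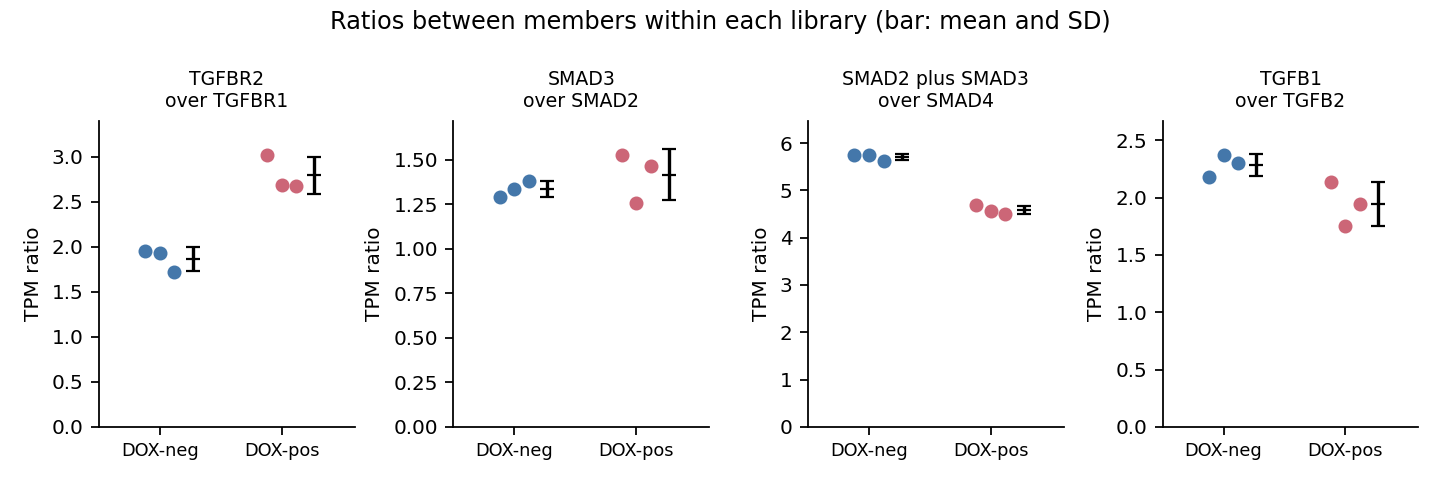
Ratio of TPM between members within each library (y axes from 0, no unit), with points for libraries, blue without and red with DOX, and bars for the mean and SD (n = 3). TGFBR2 per TGFBR1 is higher in DOX-positive libraries (2.67 to 3.02 against 1.71 to 1.95), SMAD2 plus SMAD3 per SMAD4 is lower (4.50 to 4.68 against 5.62 to 5.76), and SMAD3 per SMAD2 overlaps.

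The rest of the pathway was described through 8 lists holding 115 further genes, of which 89 were tested. Of these 89, 17 rose and 11 fell, or 31.5% of those tested, beside 26.7% of all genes tested. Their median log2 fold change was 0.06, beside -0.0034 over all genes tested. Some genes stand on more than 1 list, among them SMAD6, SKIL, PMEPA1, TGIF1 and THBS1.

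Among 12 other ligands, 5 were tested and 1 rose. This was GDF15, a stress-induced and distant family member, with 1.43, 1.38 and 1.29 CPM without DOX and 3.31, 5.43 and 2.82 CPM with DOX. The groups did not overlap, and the log2 fold change was 1.50 (SE 0.281, edgeR adjusted p = 3.76e-04). TGFB3, the remaining TGF-beta isoform, was low (2.14, 3.07 and 2.14 CPM without DOX, 1.39, 1.62 and 1.61 CPM with DOX) and did not pass the test, with a log2 fold change of -0.67 and an adjusted p of 0.0784 by edgeR.

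Latent TGF-beta is held in the matrix and released by integrins and proteases. Of 14 genes of latency and activation, 10 were tested, 2 rose and 2 fell. LTBP1, which tethers the latent complex, had 18.0, 17.0 and 17.5 CPM without DOX and 24.4, 26.8 and 22.4 CPM with DOX. It rose in DOX-treated cells (log2 fold change 0.49, SE 0.103, edgeR adjusted p = 9.95e-04). ITGB1, the β1 integrin chain, rose from 1368 to 1797 CPM, with a log2 fold change of 0.39 (edgeR adjusted p = 7.11e-05), and lay at -0.0012 on the log2(TPM + 1) scale of the deposited TPM. THBS1, an activator of latent TGF-beta, and FBN1, the matrix protein to which latent complexes bind, fell with log2 fold changes of -0.19 and -0.60. These 2 calls were lost with 5 and 4 of the 6 libraries left out in turn, and both genes are named here outside the rule for named genes, after their values were seen.

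Of 13 other receptors and co-receptors, 10 were tested, 1 rose and 1 fell. CD109, a co-receptor that restrains TGF-beta signaling, had 126.3, 130.9 and 125.2 CPM without DOX and 162.8, 194.5 and 180.7 CPM with DOX (log2 fold change 0.49, SE 0.0697, edgeR adjusted p = 1.64e-05). BMPR1A, a type I receptor for BMPs, had 123.9, 112.3 and 122.7 CPM without DOX and 96.9, 101.6 and 99.1 CPM with DOX (log2 fold change -0.27, edgeR adjusted p = 0.00475). The groups did not overlap for either gene. Of 11 secreted or membrane antagonists, 5 were tested and 0 passed by edgeR or DESeq2, with 2 at an unadjusted p under 0.05. FST, which binds activin, was nearest, at an edgeR adjusted p of 0.0548 and a log2 fold change of 1.18, from levels of 0.199 to 1.12 CPM without DOX.

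All 4 other SMADs were tested, and 2 fell. SMAD6, the inhibitory SMAD of the BMP branch (chr15:66702228-66782848, plus strand), had 13.6, 14.3 and 11.1 CPM without DOX and 5.18, 5.74 and 5.24 CPM with DOX. The groups were far apart, and DOX-treated cells kept 41.5% of the level (log2 fold change -1.27, SE 0.147, edgeR adjusted p = 1.15e-06). SMAD5, a receptor-regulated SMAD of the BMP branch, fell with a log2 fold change of -0.21 (edgeR adjusted p = 0.0184), a call that was lost when DOX-negative replicate 1 (0.0885) or DOX-positive replicate 1 (0.0579) was left out. SMAD1 and SMAD9 had log2 fold changes of 0.17 and -0.0055 and did not pass.

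The RefSeq promoter window of SMAD6, shown because it is the SMAD gene with the largest change, held the palindromic GTCTAGAC found in 0.202% of all windows, and 3 GC boxes. SMAD6 was thus picked on its fold change and shown with its motifs known, and 0 of the 24 windows of the members held GTCTAGAC. The match is a description of letters, and a part of it in the fall of SMAD6 was not tested.
SMAD6, chr15:66701986-66702285, plus strand: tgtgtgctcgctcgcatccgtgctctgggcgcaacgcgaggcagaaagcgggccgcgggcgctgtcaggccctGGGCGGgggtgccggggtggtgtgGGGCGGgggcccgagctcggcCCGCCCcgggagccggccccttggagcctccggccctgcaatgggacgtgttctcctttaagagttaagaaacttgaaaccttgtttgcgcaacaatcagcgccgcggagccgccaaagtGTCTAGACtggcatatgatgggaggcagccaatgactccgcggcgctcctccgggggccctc

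Of 23 SMAD regulators and cofactors, 22 were tested, 4 rose and 4 fell (36.4%, beside 26.7% of all genes tested). TGIF1, a SMAD corepressor, had 51.7, 50.3 and 49.6 CPM without DOX and 82.2, 83.3 and 84.0 CPM with DOX (log2 fold change 0.72, SE 0.0713, edgeR adjusted p = 1.29e-07). NEDD4L, a ubiquitin ligase that acts on activated SMAD2 and SMAD3, had 202.7, 200.4 and 193.5 CPM without DOX and 315.4, 292.9 and 330.4 CPM with DOX (log2 fold change 0.65, SE 0.0629, edgeR adjusted p = 8.39e-08). Both were higher in each DOX-positive library. USP15, a deubiquitinase of the pathway, and PPM1A, a phosphatase for SMADs, rose less (log2 fold changes of 0.30 and 0.26), and USP15 lay at -0.08 on the log2(TPM + 1) scale of the deposited TPM. PPM1A is named outside the rule for named genes, after its values were seen. MAP3K7, the kinase TAK1 of the SMAD-independent branch, fell from 57.9 to 43.0 CPM (log2 fold change -0.43, edgeR adjusted p = 2.09e-04). TGIF2, a corepressor related to TGIF1, fell with a log2 fold change of -0.55 (edgeR adjusted p = 0.0228), which was lost when DOX-negative replicate 3 (0.112) or DOX-positive replicate 3 (0.0850) was left out.

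PMEPA1 and SKIL are feedback inhibitors that TGF-beta itself induces, and both fell. SMAD7, the inhibitory target given above, did not pass the test (log2 fold change -0.03, edgeR adjusted p = 0.913). PMEPA1 had 25.4, 26.9 and 20.4 CPM without DOX and 17.7, 16.7 and 18.5 CPM with DOX (log2 fold change -0.46, SE 0.112, edgeR adjusted p = 0.00384), without overlap. SKIL had 93.1, 78.1 and 84.3 CPM without DOX and 58.2, 82.1 and 66.8 CPM with DOX. Its groups overlapped through DOX-positive replicate 2, and the call (log2 fold change -0.30, edgeR adjusted p = 0.0243) was lost when DOX-negative replicate 1 (0.143), DOX-positive replicate 1 (0.172) or DOX-positive replicate 3 (0.0757) was left out.

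Of 37 TGF-beta and activin target genes, 33 were tested, 10 rose and 4 fell, or 42.4% of those tested, beside 26.7% of all genes tested. By DESeq2, 12 targets passed, 9 of them higher. The median log2 fold change of the 33 was 0.09. The rises were led by BHLHE40, CDKN1A and ADAM12. BHLHE40, a transcriptional repressor, had 24.4, 28.9 and 27.6 CPM without DOX and 70.9, 68.9 and 69.3 CPM with DOX (log2 fold change 1.37, SE 0.0835, edgeR adjusted p = 9.17e-11). CDKN1A, the p21 inhibitor of the cell cycle, had 62.2, 53.4 and 64.4 CPM without DOX and 124.8, 147.1 and 120.7 CPM with DOX (log2 fold change 1.12, SE 0.0850, edgeR adjusted p = 2.28e-09). ADAM12, a metalloprotease, had 10.2, 10.1 and 13.4 CPM without DOX and 22.6, 25.7 and 24.1 CPM with DOX (log2 fold change 1.10, SE 0.121, edgeR adjusted p = 5.68e-07). For these 3 genes each DOX-positive library lay above each DOX-negative library. BHLHE40 and CDKN1A are also known as responders to hypoxia and to p53, respectively.

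CCN2, a widely used SMAD3 target listed as CTGF, was among the 19 of 33 tested targets that did not pass the test. It had 52.9, 57.0 and 61.1 CPM without DOX and 57.0, 62.9 and 61.9 CPM with DOX (log2 fold change 0.09, SE 0.0791, edgeR adjusted p = 0.457). The groups overlapped. IL11, a cytokine that TGF-beta induces, fell from 9.72 to 7.28 CPM (log2 fold change -0.43, edgeR adjusted p = 0.0431), without overlap, but the call was lost with 5 of the 6 libraries left out in turn (all except DOX-positive replicate 3), with adjusted p up to 0.180, and by DESeq2 (0.0775).

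Beside TGIF1, THBS1, SKIL and PMEPA1, given above, 6 more targets passed and are named here outside the rule, after their values were seen. They were CCN1, SPHK1, JUNB, VEGFA, SNAI2 and LIF, with log2 fold changes of 0.70, 1.08, 0.66, 0.43, 0.48 and 0.21. The calls of SNAI2 and LIF were lost with 4 of the 6 libraries left out in turn.

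Of 9 targets of the BMP branch, 7 were tested and 2 fell, SMAD6 (above) and ID2. These 2 were 28.6% of those tested, beside 26.7% of all genes tested. By edgeR 0 rose, as by DESeq2, with 0 higher at an unadjusted p under 0.05. ID2, an inhibitor of differentiation factors, had 15.8, 13.4 and 18.3 CPM without DOX and 8.49, 7.31 and 7.19 CPM with DOX (log2 fold change -1.04, SE 0.139, edgeR adjusted p = 7.72e-06), without overlap. Its relatives ID1 and ID3 had log2 fold changes of 0.12 and 0.07 and did not pass (edgeR adjusted p = 0.365 and 0.608). The median over the 7 genes was 0.07.

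**Figure D5:**
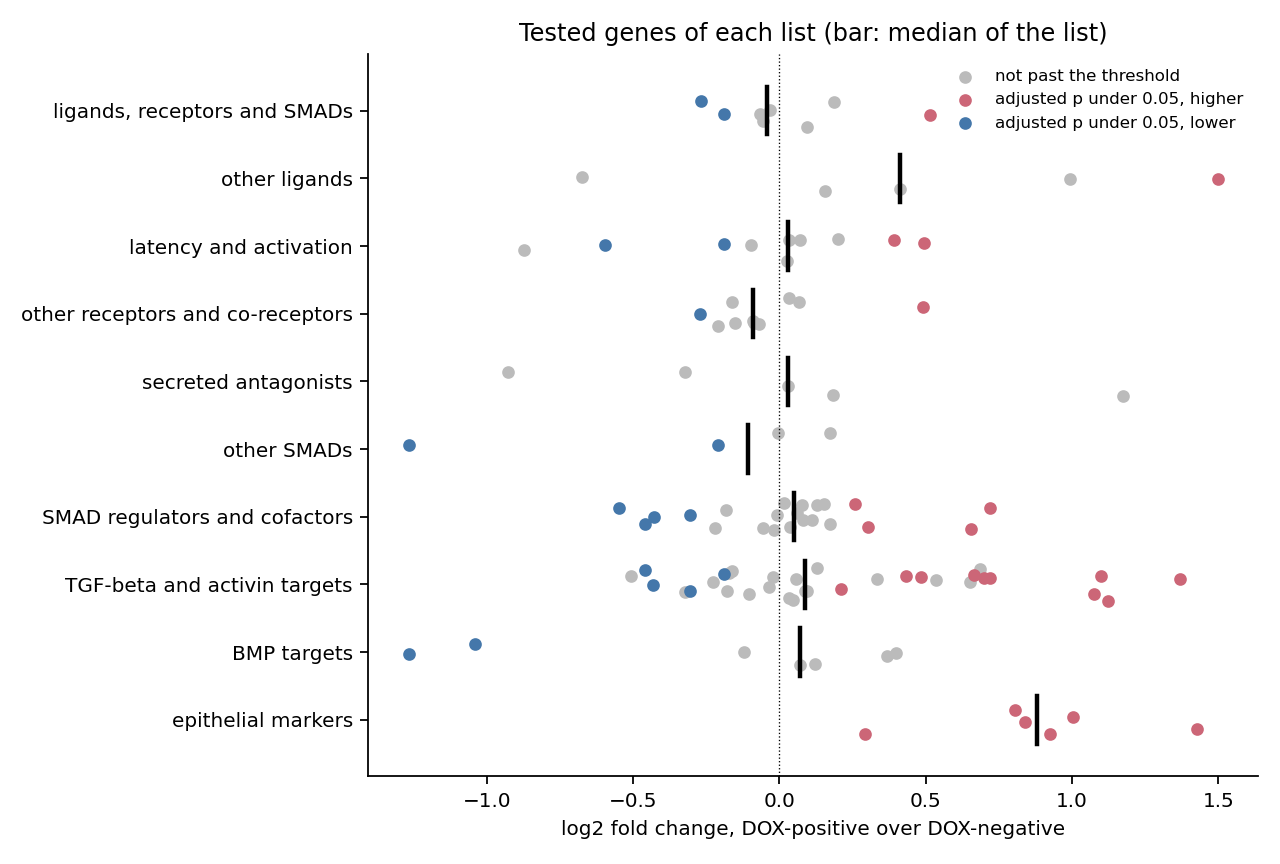
Log2 fold change of DOX-positive over DOX-negative cells (x axis) for the tested genes of each list (rows), colored by the edgeR call, with a bar at the median of each list. The 8 tested ligands, receptors and SMADs lie between -0.27 and 0.51, targets reach 1.37 (BHLHE40), SMAD6 falls to -1.27, and all 6 epithelial markers are to the right of 0.

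Markers of cell identity moved beside these lists. All 6 epithelial markers rose, where 13.0% of all genes tested did. Their summed level was 1234 to 1429 CPM without DOX and 2086 to 2164 CPM with DOX. EPCAM rose by 1.43, KRT19 by 1.00, CDH1 by 0.92, KRT8 by 0.84, KRT18 by 0.81 and KRT7 by 0.29 on the log2 scale, and none lost its call with a library left out. Of 8 fibroblast markers, 2 were tested and 0 passed by edgeR or DESeq2 (0 at an unadjusted p under 0.05), with a summed level of 4.65 to 5.56 CPM without DOX and 4.31 to 6.26 CPM with DOX, and THY1 was at 0 throughout. Of 6 leukocyte and endothelial markers, CD68, which epithelial cells also express in lysosomes, was the only gene tested and rose by 0.75 on the log2 scale; the other five had means of at most 0.282 CPM in both groups and CD3E was at 0. The prostate luminal markers KLK3 and FOLH1 had 0 counts throughout. The part of the rise of epithelial genes in the changes of the TGF-beta genes was not tested.

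The genes whose pattern was most like that of TGFBR2 over the 6 libraries were MXD1, a MYC network repressor (Pearson's r of log2 CPM 0.9997), USP53 (0.9986) and DCAF8 (0.9986). They had log2 fold changes of 1.03, 0.45 and 0.24, and 526 genes reached an r of at least 0.95. Those most like SMAD2 were LONRF2 (0.9981), EDIL3 (0.9948) and APOL6 (0.9929), with log2 fold changes of -0.20, -0.29 and -0.48. The call of LONRF2 was lost with 5 of the 6 libraries left out in turn (edgeR adjusted p up to 0.166), and 111 genes reached an r of at least 0.95. The 6 libraries share the split between groups, so any gene that differs between groups with little spread reaches a high r, and these values are descriptions.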

How the data were processed

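The authors prepared RNA-Seq libraries (TruSeq Stranded mRNA) from cells grown in triplicate. The authors deposited whole-number read counts for 28008 genes and TPM values for 25546 genes. The submitters' processing notes name STAR, DESeq2 and GRCh38 (hg38); the annotation, the counter and its strand setting are not given in the sources used here. Groups and replicate numbers were taken from sample titles.

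Counts were tested in R 4.3.3 with edgeR 4.0.16: filterByExpr (14292 genes), TMM factors (0.986 to 1.03), glmQLFit and glmQLFTest with the group as the only term. SE is the absolute log2 fold change over the square root of F, and 95% intervals take a normal deviate of this SE. CPM use TMM-scaled totals. Reads carry no stated molecular identifiers, so the 3-count floor reflects counting error alone. Replicates of the same group were not the same library deposited again (chi-square per degree of freedom between pairs 3.78 to 20.2).

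The members and lists were chosen with earlier results of these data known. Named genes were, by rule, the members, MUC1, CCN2, SKIL, PMEPA1, and per list up to 3 called genes in each direction with the largest change, an average log2 CPM of at least 1 and no overlap, plus the 3 genes most like TGFBR2 and SMAD2. Some genes are not reported here. CCN1 and CCN2 were matched to CYR61 and CTGF through RefSeq synonyms. Promoter windows are RefSeq (GRCh38.p14) and gene positions and 3′UTRs GENCODE 29 (GRCh38). For each gene the 3′UTR was the longest, of at least 50 bases, among its basic protein-coding transcripts tagged as principal (APPRIS). Longer 3′UTRs of other transcripts were not searched. Alternatives were each library left out, thinning to the smallest library, a replicate block, RLE factors, DESeq2 1.42.0, unscaled totals, all genes without a filter, a minimum of 10 counts per library, and limma 3.58.1 on log2(TPM + 1), log2(TPM + 0.1) and rescaled TPM (which understates fold changes of low genes).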

Additional observations from a re-analysis of the deposited data

How the results depend on the processing

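TGFBR2 and SMAD2 kept their direction under all 16 alternatives and their call under all except the 2 on the deposited TPM; MUC1 passed under all 16, between -2.85 and -2.36. On log2(TPM + 1) and log2(TPM + 0.1), limma called 329 and 354 genes in place of 3816, 0 and 0 members (2 and 2 at an unadjusted p under 0.05) in place of 3, and 2 and 2 other pathway genes in place of 28. Of those calls 9.42% and 8.76% were higher with DOX, in place of 48.8%, and the median of all genes lay at -0.34 and -0.39. The tested members' values less that median lay within 0.0653 and 0.0103 of their values from counts less the median from counts (-0.0034). After the TPM were rescaled, 2840 genes, 3 members and 22 pathway genes passed. With unscaled totals, 39.3% of 3834 calls were higher.

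On log2(TPM + 1) and log2(TPM + 0.1) the sign turned for TGFB2 (-0.197, -0.206), SMAD4 (-0.283, -0.299), CCN2 (-0.295, -0.303), ITGB1 (-0.00122, -0.00114), USP15 (-0.0803, -0.0861) and DCAF8 (-0.148, -0.150), and with thinned counts for SMAD7 (0.0624). With 1 library left out, values ranged from 2784 to 3645 genes, 2 to 4 members and 22 to 33 pathway genes, and the sign turned for TGFB1 (-0.0938 to 0.00903) and SMAD7 (-0.178 to 0.111). Of the values of named genes other than MUC1 under the alternatives, 450 kept side and direction, 77 lost the call, 1 gained it and 16 changed sign.

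Same-numbered libraries deviated with r of -0.0703, -0.145 and -0.0367, and 0 of 6 correlated best with their own number, so the numbers were not taken to pair them. With a replicate block, 3158 genes (3136 shared), 2 members and 26 pathway genes passed, and the calls of SMAD3 (adjusted p = 0.0640 by edgeR), SMAD5 (0.0572) and LONRF2 (0.0876) were lost. LONRF2 was also lost under DESeq2, RLE factors, thinned counts, no filter, the 3 fits on TPM and 5 of the 6 fits with a library left out. Depth limits INHBA and the untested pathway genes.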
